A study of Mus musculus with 4 samples.

Results

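Bone marrow stem and progenitor cells were described here as cell barcodes that carried RNA of both Kit, the receptor for stem cell factor, and Cd34, a surface sialomucin of immature blood cells. A barcode marks the RNA caught in 1 droplet, and each RNA molecule is counted once through its unique molecular identifier (UMI). Barcodes with 200 or more genes and no more than 10% of UMIs from mitochondrial genes were kept. Members were selected on the measured counts of 4 genes: a member held at least 1 Kit UMI, at least 1 Cd34 UMI, at most 5 UMIs of the neutrophil granule gene Elane and at most 1 UMI of the platelet factor gene Pf4. This rule gave 198 barcodes, of 18817 kept in bone marrow and 43059 barcodes in the whole series. They divided into 120 from KO and 78 from WT.

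The KO library came from mice of genotype S100a8fl/fl Vav-Cre+/-, a conditional knockout of S100a8 in the hematopoietic system. The WT library came from S100a8fl/fl Vav-Cre-/- mice, so both groups carried the floxed allele and the WT label marks the absence of Cre. Vav regulatory sequences drive Cre in blood-forming cells and their descendants, so its targets include stem cells and are not limited to neutrophils. CD45+ cells were sorted from tumor-free, untreated marrow, 3 mice were pooled for each library, and 1 library was made per genotype. Age and sex were not given in the labels. With 1 library a group no test between genotypes is possible, and no p-value was computed. Every interval below is a 95% interval of counting error that leaves out the spread between mice and between library preparations. Intervals of level ratios pool the UMIs of all members and also leave out the spread between barcodes. The series also holds 2 libraries of CD45+ cells from LLC tumors.

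Hematopoietic stem cells rest in the marrow and renew themselves, and they give rise to multipotent progenitors that begin to transcribe genes of several lineages at low levels before one program prevails. Hlf, Mecom and Meis1 encode transcription factors of the stem cell state, Flt3 marks progenitors that keep lymphoid potential, and Mpo, Prtn3 and Ctsg encode granule proteins that granulocyte and monocyte progenitors start to make. S100a8 and S100a9 encode the calcium-binding partners of calprotectin, which mature neutrophils hold in large amounts. The comparison asks whether the RNA of immature cells differs when S100a8 is deleted throughout the blood system.

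The targeted gene S100a8 (ENSMUSG00000056054, chromosome 3, 90668978 to 90670035, plus strand, GRCm38) had 1 UMI in the 120 KO members and 2685 UMIs in the 78 WT members, which is 0.619 CPM in KO against 3725 CPM in WT, where CPM is a count divided by the UMIs of all members of the library, per 1000000. S100a8 UMIs were in 0.833% of KO members and 98.7% of WT members. B-lineage barcodes (at least 2 UMIs each of Cd79a and Cd79b, no Kit and no Cd34), which do not make S100a8, had a S100a8 UMI in 0 of 738 KO barcodes and in 95.9% of 1406 WT barcodes. The S100a8 level in those WT B-lineage barcodes, 15329.5 CPM, was above that of the WT members. WT B-lineage barcodes had a median of 1814 UMIs against 6878 in WT members, so these levels come from unlike depths. Whether the S100a8 RNA of WT members was their own or background of the library was not tested.

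Depth per member differed between the genotypes. KO members held a median of 12050 UMIs (range 776 to 47403) and WT members a median of 6878 (1308 to 34808), and the median number of genes was 3768 in KO and 2772 in WT. Their total was 1614529 UMIs in KO and 720874 in WT. The libraries held 11070 KO and 8126 WT barcodes with 51776813 UMIs in KO and 32906493 in WT. The median mitochondrial share of the members was 2.19% in KO and 2.43% in WT. The 2 libraries shared 33 barcode sequences, none of them a member.

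Members made up 1.11% of kept KO barcodes (0.918 to 1.32; 120 of 10853) and 0.979% of kept WT barcodes (0.775 to 1.22; 78 of 7964). The ratio of the shares was 1.13 (0.850 to 1.5), an interval that includes 1. When every barcode was thinned to 2000 UMIs before the rule was applied, the ratio was 0.827 (0.507 to 1.35), so neither direction was detectable at this depth. Near the limits of the rule, 26 KO and 23 WT members had exactly 1 Kit UMI, and 26 KO and 14 WT members exactly 1 Cd34 UMI. Elane was at 0 in 95 KO and 62 WT members and at 4 or 5 UMIs in 6 KO and 2 WT members. Outside the limit, 3 KO and 7 WT barcodes with Kit and Cd34 had 6 to 8 Elane UMIs. A single Pf4 UMI was found in 14 KO and 5 WT members, and 4 KO and 2 WT barcodes with 2 Pf4 UMIs stayed outside. The levels used by the rule were 245 CPM in KO and 307 CPM in WT for Kit, and 408 CPM in KO and 473 CPM in WT for Cd34, which are given as a description.

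Markers that the rule did not use were set against the label. Flt3 or Meis1 had a UMI in 104 of 120 KO members (86.7%) and 65 of 78 WT members (83.3%), and both had one in 55 KO and 33 WT members. Flt3 was detected in 64.2% (54.9 to 72.7) of KO and 62.8% (51.1 to 73.5) of WT members, against 2.30% of KO and 1.92% of WT B-lineage barcodes, whose median depth was 2170 UMIs in KO and 1814 in WT. Meis1 was detected in 68.3% (59.2 to 76.5) of KO and 62.8% (51.1 to 73.5) of WT members, against 3.12% of KO and 1.56% of WT B-lineage barcodes. Hlf, a gene of the most immature cells, was detected in 46.7% (37.5 to 56.0) of KO and 48.7% (37.2 to 60.3) of WT members, against 0.407% of KO and 0.142% of WT B-lineage barcodes. Slamf1, a marker of long-term stem cells, was found in 1.67% of KO and 2.56% of WT members, close to the 1.49% of KO and 1.21% of WT B-lineage barcodes, and carries no information here. The label thus rests on Flt3, Meis1 and Hlf, and the members are mixed stem and progenitor cells and not purified stem cells. Neither Flt3 nor Meis1 was found in 16 KO and 13 WT members.

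Depth had to be made equal before shares were compared between genotypes. With each member thinned to 4500 UMIs, 117 KO and 63 WT members remained and 3 KO and 15 WT members were too shallow. The members had been selected on UMI counts at full depth, so thinning did not make the selection equal. Before thinning, the median Kit level over barcodes was 242 CPM in KO and 333 CPM in WT. That of Cd34 was 337 CPM in KO and 514 CPM in WT. The part of this selection in the comparisons was not tested. Flt3 was then detected in 39.3% (30.4 to 48.8) of KO and 60.3% (47.2 to 72.4) of WT members. Meis1 stood at 41.9% in KO and 54.0% in WT, and Hlf at 30.8% in KO and 38.1% in WT. Dntt, the template-free DNA polymerase of early lymphoid cells, was found in 17.9% (11.5 to 26.1) of KO against 30.2% (19.2 to 43.0) of WT members. Mpo stood at 61.5% in KO and 63.5% in WT, Prtn3 at 68.4% in KO and 55.6% in WT, and Ctsg at 35.9% in KO and 30.2% in WT. The intervals of these thinned shares overlapped between genotypes for every gene in this paragraph, most narrowly for Flt3.

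**Figure D1:**
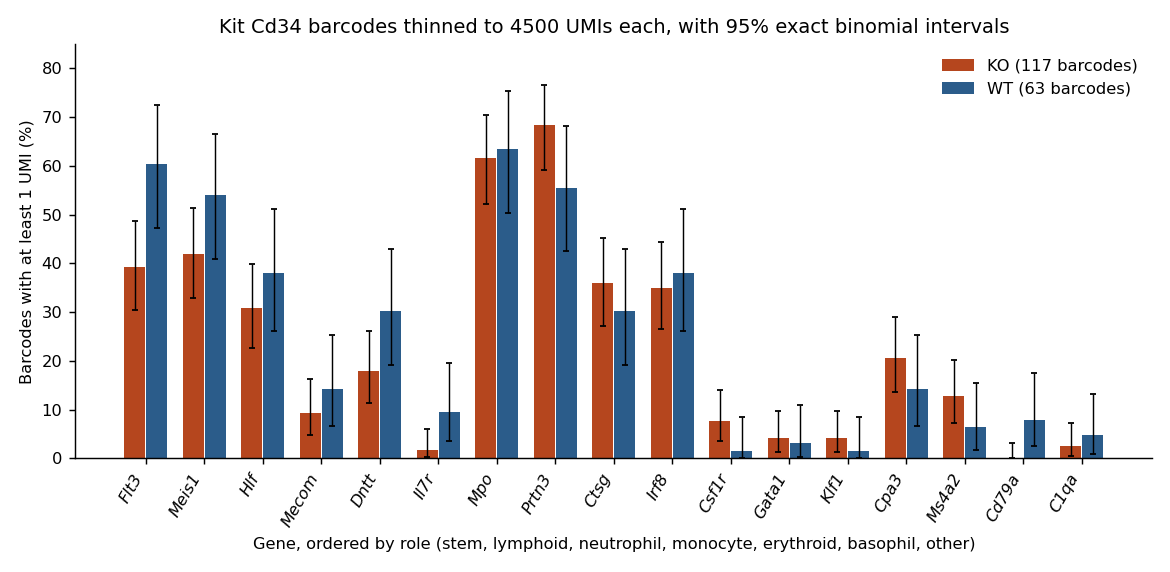
Share of members with at least 1 UMI of each marker gene (y axis, percent) after thinning to 4500 UMIs, with KO bars left of WT bars and exact binomial 95% intervals. Flt3 stands at 39.3% in KO and 60.3% in WT, while Mpo stands at 61.5% in KO and 63.5% in WT.

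Most genes had similar levels in KO and WT members. Every ratio below is the KO level over the WT level and is followed by its counting interval. That interval treats UMIs as independent, so it is too narrow where a few barcodes hold most UMIs of a gene. Among 6543 genes with 50 or more UMIs in KO and WT members together, leaving out the 4 genes of the rule, the median log2 ratio of KO over WT was −0.01. Past 1.5-fold, 363 genes were higher in KO (5.55%) and 382 were lower (5.84%), and these percentages are the background for the gene groups below. The counting interval of the ratio lay above 1 for 421 genes and below 1 for 434, and 217 higher and 246 lower genes met both conditions. Among the 1997 genes with at least 200 UMIs, 54 were higher (2.7%) and 29 lower (1.45%).

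**Figure D2:**
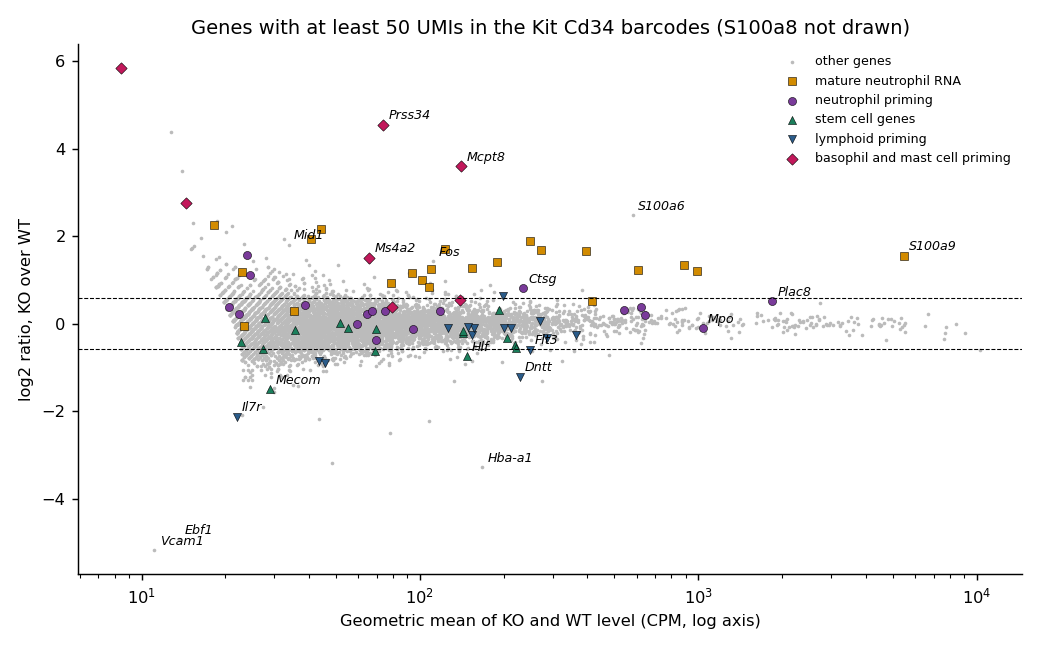
Level of each measured gene (x axis, geometric mean of KO and WT in CPM, log axis) against its log2 ratio of KO over WT (y axis), with 5 gene lists in color and dashed lines at 1.5-fold. Most genes lie between the dashed lines; basophil genes such as Prss34 and Mcpt8 and genes of mature neutrophils such as S100a9 lie above them, and Dntt and Il7r below.

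The stem cell list was lower in KO as a group. Of its 16 measured genes (31 listed), 13 lay below the median of all genes and 3 above, and 3 were past 1.5-fold lower and 0 past 1.5-fold higher, where 5.84% and 5.55% of all measured genes were. The median log2 ratio of the list minus that of all genes was −0.26. Hlf (ENSMUSG00000003949), a transcription factor that maintains stem cells, was at 114 CPM in KO against 190.0 CPM in WT, 1.67-fold lower (1.33 to 2.09). The level came from 56 KO and 38 WT members with a UMI. Mecom, which encodes the stem cell regulator EVI1, had 28 UMIs in KO and 35 in WT, and was 2.80-fold lower (1.65 to 4.78).

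Several other genes of the stem cell program gave smaller differences in the same direction. Angpt1, a ligand of the receptor Tie2, was at 186 CPM in KO against 261 CPM in WT, a ratio of 0.712 (0.592 to 0.860). Ctla2a, a cysteine protease inhibitor, was at 183 CPM in KO against 269 CPM in WT, a ratio of 0.681 (0.567 to 0.821). Hoxa9, a homeobox factor that works together with Meis1, was at 55.7 CPM in KO against 86.0 CPM in WT (0.648, 0.464 to 0.911). Meis1 itself had a ratio of 0.865 (0.685 to 1.10) and Txnip, an inhibitor of thioredoxin that is high in resting cells, one of 0.793 (0.654 to 0.966). Hoxa7 (1.01, 0.681 to 1.54) and Ly6a (0.937, 0.638 to 1.39), which encodes Sca-1, had intervals that include 1. Procr, another stem cell marker, had a UMI in 10.0% of KO and 3.85% of WT members. After thinning it was found in 2.56% of KO and 3.17% of WT members. Of the listed genes, Fgd5, Hoxb5, Cdkn1c and Ndn were at 0 in WT, whose members held fewer UMIs in total, and none was at 0 in KO. Gata2 was the exception with an interval above 1, at 214 CPM in KO against 172 CPM in WT (1.24, 1.01 to 1.54). It encodes a factor used by stem cells and by basophils and mast cells, and its ratio was 0.885 when barcodes with basophil markers were left out. The list median stayed below that of all genes in all 14 alternatives, from −0.45 to −0.07, the smallest difference coming from members of 5000 to 15000 UMIs.

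Lymphoid-priming genes were also lower in KO. Of 15 measured genes (18 listed), 13 lay below the median of all genes and 2 above, with 5 past 1.5-fold lower, 1 past 1.5-fold higher and a median difference of −0.23 on the log2 scale. Flt3 (ENSMUSG00000042817), the receptor tyrosine kinase of lymphoid and dendritic progenitors, was at 202 CPM in KO against 304 CPM in WT, a ratio of 0.665 (0.558 to 0.792). Its median over barcodes was 124 CPM in KO and 182 CPM in WT, from a lowest of 0 to a highest of 1358 CPM in KO and 1529 CPM in WT, so the groups overlapped over nearly their whole range. Il7r, the receptor for the cytokine that B and T precursors need, was at 10.5 CPM in KO against 45.8 CPM in WT and was 4.35-fold lower (2.35 to 8.32), with a UMI in 5 KO and 8 WT members. The Il7r ratio ranged from 0.0520 with at least 2 UMIs of Kit and of Cd34 to 0.609 with under 3 Mpo UMIs, and moved by over 1.5 times in 6 of 13 alternatives. Il12a (0.553, 0.361 to 0.851) and Ly6d (0.536, 0.354 to 0.814), a marker of B-biased lymphoid progenitors, were lower as well, Ly6d with a ratio from 0.101 with at least 3 Mpo UMIs to 1.25 with under 3. Mef2c and Bcl11a, transcription factors of lymphoid fate, had ratios of 0.834 (0.722 to 0.966) and 0.798 (0.678 to 0.942). Satb1, Ikzf1, Notch1 and Tcf3 had ratios of 0.933, 0.935, 0.94 and 0.95, with intervals that include 1. Cd52, a surface glycoprotein of lymphocytes and other leukocytes, was the gene past 1.5-fold in the other direction, at 249 CPM in KO against 159.5 CPM in WT (1.56, 1.27 to 1.94), and at 2.44 with under 3 Mpo UMIs.

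Dntt (ENSMUSG00000025014, chromosome 19, 41029275 to 41059525, plus strand) had the lowest ratio among the genes eligible for naming. It was at 149.9 CPM in KO against 347 CPM in WT, 2.31-fold lower (1.93 to 2.77), from 242 KO and 250 WT UMIs. A Dntt UMI was found in 28 of 120 KO members and 29 of 78 WT members, and the 3 barcodes with most Dntt held 45.5% of the KO UMIs and 36.8% of the WT UMIs. Flt3 and Dntt were found together in 25 KO members (20.8%) and 27 WT members (34.6%). The direction was the opposite in B-lineage barcodes, where Dntt was at 217 CPM in KO against 79.4 CPM in WT, a ratio of 2.74 (2.42 to 3.11). In the Elane-rich barcodes, those that failed only the Elane limit (130 in KO and 63 in WT), it was at 25 CPM in KO against 0.785 CPM in WT, from 80 KO UMIs and 1 WT UMI, a ratio of 31.9 (5.56 to 1275) and also the opposite direction. Dntt was thus lower in KO in the members and not in either of these classes. B-lineage barcodes made up 6.80% of kept KO and 17.7% of kept WT barcodes, and whether their mix of stages differed was not tested. The WT members also held more RNA of B cell markers, whose part in the Dntt ratio was not tested. Cd79a was found in 4.17% of KO and 10.3% of WT members. Ebf1, a B cell transcription factor, was at 2.48 CPM in KO against 74.9 CPM in WT, and Igkc, the kappa light chain, at 20.4 CPM in KO against 91.6 CPM in WT. Without barcodes that held at least 5 UMIs of other lineages (4 KO and 8 WT members), the Dntt ratio was 0.437 and the lymphoid list median was −0.21. Over all alternatives the Dntt ratio ranged from 0.271 without barcodes rich in neutrophil RNA to 0.609 in members with under 3 Mpo UMIs.

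Neutrophil-priming genes were higher in KO as a group over all members, and much less so without the barcodes with basophil genes described below. Of 18 measured genes (20 listed), 15 lay above the median of all genes and 3 below, 3 were past 1.5-fold higher and 0 lower, and the median was 0.30 above that of all genes on the log2 scale. Mpo, the myeloperoxidase of azurophil granules, was among the 3 below, at 1003 CPM in KO against 1072 CPM in WT (ratio 0.936, 0.858 to 1.02). Gstm1 also had a ratio below 1, at 0.775. It ranged over the alternatives from 0.631 with no Elane or Pf4 UMI to 1.01 with thinned members. Prtn3 (ENSMUSG00000057729), which encodes proteinase 3, was at 606 CPM in KO against 487 CPM in WT (1.24, 1.10 to 1.41). Ctsg (ENSMUSG00000040314), which encodes cathepsin G, was at 312 CPM in KO against 178 CPM in WT (1.75, 1.44 to 2.15). Plac8, a small protein of myeloid cells, was at 2202 CPM in KO against 1537 CPM in WT (1.43, 1.34 to 1.53), and its median over barcodes was 1809.8 CPM in KO and 1154 CPM in WT. Srgn, the proteoglycan that packs granule proteins, had a ratio of 1.3 (1.16 to 1.47), and Calr, an endoplasmic reticulum chaperone, one of 1.16 (1.04 to 1.3). Cebpe and Ms4a3, genes of committed granulocyte progenitors, had ratios of 2.16 (1.15 to 4.42) and 2.99 (1.53 to 6.52) from low levels, namely 35.9 CPM in KO against 16.6 CPM in WT for Cebpe and 41.5 CPM in KO against 13.9 CPM in WT for Ms4a3.

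The size of this difference depended strongly on a small set of barcodes with basophil genes. Without members that held at least 3 UMIs over Ms4a2, Fcer1a, Mcpt8 and Prss34, the list median was 0.08 above that of all genes, against 0.30 with them. The Ctsg ratio was then 1.23 and the Ms4a3 ratio 1.05. In members with under 3 Mpo UMIs the list median was at that of all genes (−0.00080).

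The promoters of Dntt, Ctsg and Prtn3 are shown because these genes carry the lymphoid and the neutrophil side of the comparison. Each window runs from 250 bases before to 50 bases after the RefSeq gene start (GRCm38.p6), printed 5′ to 3′ on the strand of the gene, at chr19:41029025-41029324 (plus) for Dntt, chr14:56102525-56102824 (minus) for Ctsg and chr10:79879417-79879716 (plus) for Prtn3. Capitals mark matches to GAGGAA, the core bound by PU.1, or to TGTGGT, the core bound by RUNX factors, which reads ACCACA on the other strand.
Dntt: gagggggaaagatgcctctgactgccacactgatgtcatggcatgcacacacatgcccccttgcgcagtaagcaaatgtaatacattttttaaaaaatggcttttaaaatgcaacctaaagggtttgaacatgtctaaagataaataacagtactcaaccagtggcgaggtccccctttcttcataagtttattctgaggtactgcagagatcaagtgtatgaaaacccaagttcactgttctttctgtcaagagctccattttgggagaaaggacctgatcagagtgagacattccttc
Ctsg: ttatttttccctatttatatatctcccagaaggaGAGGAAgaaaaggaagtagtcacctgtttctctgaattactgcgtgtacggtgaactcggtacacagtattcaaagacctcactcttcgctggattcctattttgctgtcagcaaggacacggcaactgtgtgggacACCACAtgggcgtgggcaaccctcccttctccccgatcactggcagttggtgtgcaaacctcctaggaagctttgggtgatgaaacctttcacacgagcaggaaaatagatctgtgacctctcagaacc
Prtn3: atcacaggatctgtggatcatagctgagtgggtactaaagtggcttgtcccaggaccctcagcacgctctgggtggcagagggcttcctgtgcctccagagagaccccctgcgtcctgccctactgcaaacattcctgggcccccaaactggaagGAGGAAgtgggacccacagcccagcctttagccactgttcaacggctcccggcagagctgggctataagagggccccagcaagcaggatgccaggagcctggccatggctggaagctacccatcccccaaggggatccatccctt
The 4 motifs were searched on both strands, and none of the matches overlapped. GAGGAA began 216 bases before the start in Ctsg and 95 bases before it in Prtn3, and TGTGGT (as ACCACA) 79 bases before it in Ctsg. The C/EBP pattern TTNNGNAA and the Ikaros core TGGGAA had no match in these windows, and Dntt had a match to none of the motifs searched. Among all 32817 promoter windows of this length, 28.3% held GAGGAA, 16.8% TGTGGT, 40.7% TTNNGNAA and 25.6% TGGGAA. These matches describe letters in a window and were not tested for binding.

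**Figure D3:**
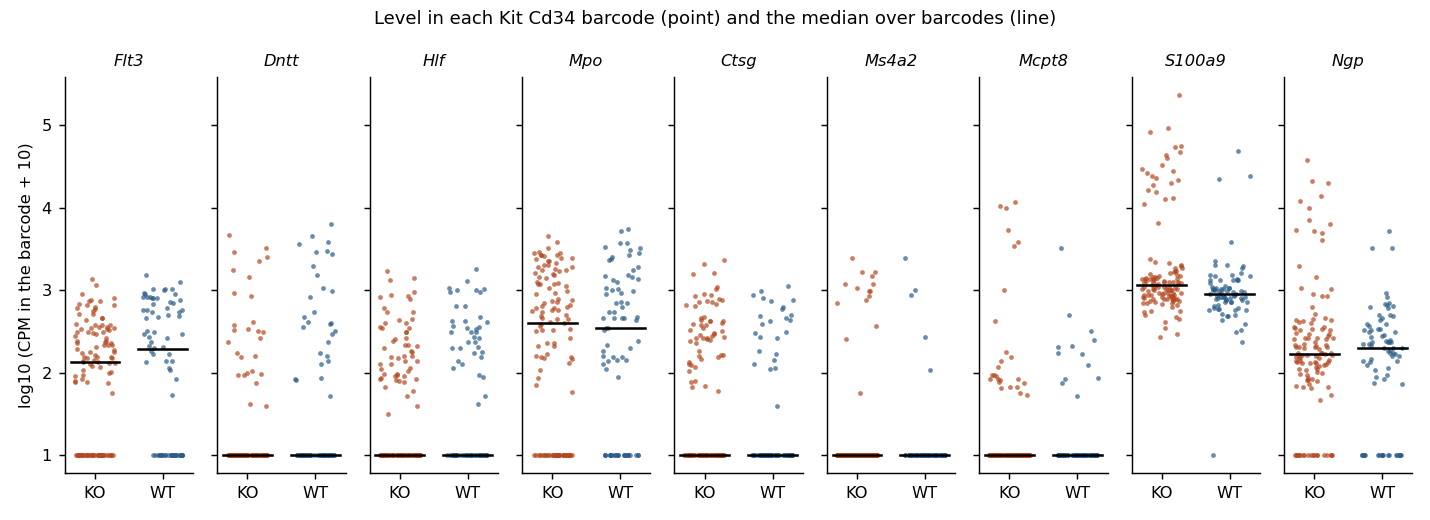
Level in each member (point, log10 of CPM plus 10) for 9 genes, with KO left of WT and the line at the median over barcodes. Flt3 and Mpo are spread over many barcodes, Ms4a2 and Mcpt8 are high in a few, and S100a9 and Ngp have a separate high tail that holds more KO than WT barcodes.

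Genes of basophils and mast cells had high KO over WT ratios that came from few barcodes. All 7 measured genes (14 listed) lay above the median of all genes, 5 were past 1.5-fold higher, and the median was 2.78 above on the log2 scale. Ms4a2, the beta chain of the high-affinity IgE receptor, was at 111 CPM in KO against 38.8 CPM in WT (2.85, 1.91 to 4.42), from 15 KO and 5 WT members with a UMI. Mcpt8, a basophil protease, was at 489.9 CPM in KO against 40.2 CPM in WT, and 3 barcodes held 72.2% of its KO UMIs. Prss34, another basophil protease, was at 357 CPM in KO against 15.3 CPM in WT, and 3 barcodes held 90.6% of its KO UMIs. Fcer1a, the alpha chain of the IgE receptor, had 39 UMIs in KO and 0 in WT. Prg2, the major basic protein of eosinophils, had 385 UMIs in KO, all in 1 barcode, and 0 in WT. Members with at least 3 UMIs over Ms4a2, Fcer1a, Mcpt8 and Prss34 numbered 16 in KO (13.3%; 7.82 to 20.7) and 4 in WT (5.13%; 1.41 to 12.6), and 14 of 117 KO and 2 of 63 WT members after thinning, with intervals that overlap. Cpa3, the mast cell carboxypeptidase, was in 33 KO and 17 WT members at 168 CPM in KO against 115 CPM in WT, and its ratio was 0.654 without those barcodes.

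Erythroid and megakaryocyte genes were lower in KO, with 12 of 14 measured genes (25 listed) below the median of all genes, 6 past 1.5-fold lower, 0 past 1.5-fold higher and a median difference of −0.43 on the log2 scale. Car2, a carbonic anhydrase of red cell precursors, was at 240.3 CPM in KO against 434 CPM in WT (0.553, 0.476 to 0.644), and Apoe at 145 CPM in KO against 266 CPM in WT (0.544, 0.448 to 0.662). The barcode with most Car2 held 130 of 388 UMIs in KO and 100 of 313 in WT. For Apoe the top barcode held 19 of 234 UMIs in KO and 56 of 192 in WT. Itga2b (0.923), Gfi1b (0.918), Nfe2 (0.985) and Car1 (1.07) had intervals that include 1. The number of members with at least 2 UMIs over Gata1 and Klf1, the transcription factors of the erythroid lineage, was 9 in KO and 2 in WT, and after thinning 2 of 117 in KO and 1 of 63 in WT. Hemoglobin RNA was concentrated, with 351 of 375 WT Hba-a1 UMIs in 1 barcode and 48 of 87 KO UMIs in 1. In members of 5000 to 15000 UMIs the list median was 0.08 above that of all genes, the Apoe ratio was 1.21, and as a mean over members the list median was 0.12 above, so the direction of this list turned with the choice of barcodes.

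Monocyte and dendritic genes showed no shift as a group, with 8 of 17 measured genes (20 listed) above and 9 below the median of all genes, 1 past 1.5-fold higher, 3 lower and a median difference of −0.01. Irf8, the factor that sets monocyte and dendritic fate, was at 315 CPM in KO against 302 CPM in WT (1.04, 0.888 to 1.23). Csf1r had a ratio of 1.00 (0.543 to 1.94), Zeb2 0.988 (0.837 to 1.17) and Ly6c2 1.33 (1.04 to 1.71). Cybb, the catalytic subunit of the phagocyte oxidase, which mature neutrophils also hold, was at 144 CPM in KO against 72.1 CPM in WT (1.99, 1.47 to 2.75). Psap, a lysosomal activator protein, was at 374 CPM in KO against 613 CPM in WT (0.610, 0.539 to 0.691) and Siglech, a receptor of plasmacytoid dendritic cells, at 16.1 CPM in KO against 38.8 CPM in WT (0.415, 0.234 to 0.734).

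Transcription factors that set lineage had ratios close to 1. Of 32 measured fate factors (39 listed), 3 were past 1.5-fold higher, 1 was past 1.5-fold lower, and the median difference from all genes was −0.04. Spi1, which encodes PU.1, had a ratio of 1.16 (0.907 to 1.49), Cebpa 1.22 (0.874 to 1.73), Runx1 1.04 (0.880 to 1.24), Myb 1.05 (0.943 to 1.18), Gfi1 1.16 (0.626 to 2.27) and Ikzf1 0.935 (0.767 to 1.14). The higher genes were Cebpb at 167 CPM in KO against 108 CPM in WT (1.55, 1.20 to 2.01), Cebpd at 63.8 CPM in KO against 27.7 CPM in WT (2.30, 1.41 to 3.92) and Cebpe, described above, and the lower gene was Hoxa9. Sox4, a factor of early progenitors, was at 564 CPM in KO against 707 CPM in WT (0.797, 0.714 to 0.890).

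Among 24 measured cytokine receptor genes (28 listed), 2 were past 1.5-fold higher, 3 lower and 19 neither, with a median 0.01 above that of all genes. Csf2rb (ENSMUSG00000071713, chromosome 15, 78325752 to 78353847, plus strand), the shared beta chain of the receptors for GM-CSF, IL-3 and IL-5, was at 107 CPM in KO against 40.2 CPM in WT (2.66, 1.79 to 4.10), with a UMI in 74 KO and 23 WT members. Csf2rb has a near-identical neighbour, Csf2rb2, and the counting can have split UMIs between them. The Csf2rb ratio ranged over the alternatives from 2.03 as a mean over members to 4.19 with thinned members. Its partner chains Csf2ra (1.01, 0.629 to 1.67) and Il3ra (0.989, 0.623 to 1.60) had intervals that include 1. Tgfbr2, a receptor for TGF-beta, was the other higher gene (1.51, 0.799 to 3.06), and Flt3, Il7r and Il10ra (0.412, 0.227 to 0.747) were the lower ones. Csf3r, the G-CSF receptor, had a ratio of 1.16 (0.811 to 1.69), Cxcr4, the homing receptor that holds stem cells in the marrow, 1.05 (0.871 to 1.27), and Ifngr1 1.45 (1.04 to 2.05). The 6 measured genes that code for receptors or adaptors of extracellular calprotectin (14 listed) were all within 1.5-fold with a median 0.05 above that of all genes, including Bsg (0.826, 0.681 to 1.00), Cd33 (1.18, 0.709 to 2.02) and Myd88 (1.28, 0.713 to 2.43).

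Genes of niche adhesion and homing had no common direction, with 3 of 21 measured genes (27 listed) past 1.5-fold higher, 4 lower and a median difference of −0.02. Itgb2, the beta chain of the leukocyte integrins, was at 45.8 CPM in KO against 9.71 CPM in WT (4.72, 2.18 to 12.1). Cd63, a tetraspanin of granule membranes, was at 217 CPM in KO against 128 CPM in WT (1.70, 1.35 to 2.16), and its ratio was 1.04 without barcodes with basophil markers. Vcam1, an adhesion molecule that macrophages also make, had 3.00 UMIs in KO and 48.0 in WT, and 42.0 of the WT UMIs were in 1 barcode. Adgrg1, an adhesion receptor of stem and progenitor cells, was at 368 CPM in KO against 487 CPM in WT (0.756, 0.661 to 0.865), and Cd37, Cd82 and Alcam had ratios of 0.635, 0.662 and 0.554.

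Cell cycle genes gave no common direction. Of 44 S-phase genes, 26 lay above and 18 below the median of all genes, with a median 0.07 above and 4 past 1.5-fold higher, among them the flap endonuclease Fen1 (1.74, 1.20 to 2.58). Of 49 G2 and M-phase genes, 19 lay above and 30 below, with a median difference of −0.10 and 3 past 1.5-fold lower, namely Nuf2, Bub1 and Ttk. Mki67, the proliferation antigen, was at 352 CPM in KO against 423 CPM in WT (0.832, 0.722 to 0.959). Cdk6, the cyclin-dependent kinase that stem cells need to leave quiescence, was at 1013 CPM in KO against 787 CPM in WT (1.29, 1.17 to 1.42), with a median over barcodes of 1037 CPM in KO and 774 CPM in WT. Cdkn1a, Cdkn1b and Ccnd2 had ratios of 1.19, 1.13 and 0.995, with intervals that include 1. The 15 measured genes of cell cycle entry and quiescence (19 listed) had a median difference of −0.11 and 0 were past 1.5-fold in either direction.

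Genes of ribosome biogenesis were slightly higher in KO. Of 27 genes in the MYC and ribosome biogenesis list, 25 lay above the median of all genes and 2 below, but only 2 were past 1.5-fold, and the median was 0.23 above on the log2 scale. Myc had a ratio of 1.3 (1.03 to 1.64), Ncl, which encodes nucleolin, 1.14 (1.06 to 1.22), Npm1, nucleophosmin, 1.18 (1.11 to 1.26), and Nolc1, a nucleolar phosphoprotein, 1.5 (1.19 to 1.90). After thinning of the members to equal depth the list median was at that of all genes (−0.00042), so the difference was not seen at matched depth. Of the 54 nuclear-encoded respiratory chain genes, 42 lay above and 12 below and 0 were past 1.5-fold, with a median 0.11 above and, after thinning, a difference of −0.03. Of 19 measured genes of glycolysis and hypoxia, 5 were past 1.5-fold higher and 3 lower with a median 0.12 above, and Eno1 was at 160.4 CPM in KO against 99.9 CPM in WT (1.61, 1.23 to 2.12) and Gapdh at 963 CPM in KO against 760.2 CPM in WT (1.27, 1.15 to 1.4).

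Immediate early genes, which respond within minutes to growth factors, stress and tissue dissociation, differed in part. Of 21 measured genes (28 listed), 13 lay above and 8 below the median of all genes, 6 were past 1.5-fold higher and 2 lower, with a median 0.27 above. Fos (ENSMUSG00000021250) was at 183 CPM in KO against 68.0 CPM in WT (2.69, 1.98 to 3.72) and was detected in 70 KO and 24 WT members. Dusp1, a phosphatase of MAP kinases, was at 138 CPM in KO against 61.0 CPM in WT (2.25, 1.62 to 3.19), Fosb had a ratio of 2.72 (1.43 to 5.71), Ier3 1.57 (1.13 to 2.23) and Junb 1.42 (1.17 to 1.75). Jun (0.844, 0.666 to 1.07) and Klf6 (0.980, 0.729 to 1.33) had intervals that include 1, and Rhob (0.601, 0.449 to 0.806) and Dusp2 (0.653, 0.508 to 0.842) were lower. Fos was also higher in other barcodes of the KO library, with a ratio of 1.53 (1.36 to 1.72) in B-lineage barcodes and 2.39 (1.86 to 3.1) in Elane-rich barcodes. How far the ratio belongs to the whole library was not tested. Heat shock genes, which code for chaperones that cells induce when proteins misfold, had a median 0.17 above that of all genes with none of 13 past 1.5-fold higher and 1 lower, Hsph1 (0.610, 0.432 to 0.866).

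Genes of the p53 pathway and apoptosis lay 0.25 above the median of all genes, with 13 of 15 measured genes (24 listed) above and 2 past 1.5-fold. These were Bcl2, which blocks apoptosis, at 199 CPM in KO against 123 CPM in WT (1.61, 1.27 to 2.06), and Ccng1, a p53 target, at 40.9 CPM in KO against 13.9 CPM in WT (2.95, 1.51 to 6.43). Trp53 had a ratio of 1.43 (1.15 to 1.80), whereas Cdkn1a (1.19, 0.764 to 1.89) and Mdm2 (1.02, 0.626 to 1.70), targets of the same factor, had intervals that include 1.

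Interferon-stimulated genes were lower in KO. Of 35 measured genes (59 listed), 25 lay below the median of all genes and 10 above, 9 were past 1.5-fold lower and 2 higher, and the median difference was −0.24. Ifi27l2a was at 106 CPM in KO against 199.8 CPM in WT (0.530, 0.422 to 0.666), Slfn8 at 31.6 CPM in KO against 66.6 CPM in WT (0.474, 0.314 to 0.719), Dtx3l at 64.4 CPM in KO against 112 CPM in WT (0.573, 0.425 to 0.776) and Ifi203 at 183 CPM in KO against 259 CPM in WT (0.704, 0.584 to 0.851). Ifitm3 (1.23, 1.05 to 1.43) and Ly6e (1.22, 1.11 to 1.35), which immature cells express without interferon, had ratios above 1, and Slfn2 was at 70.6 CPM in KO against 41.6 CPM in WT (1.70, 1.13 to 2.63). Ifi27l2a was lower in KO in B-lineage barcodes as well (0.468, 0.444 to 0.493) and in barcodes that failed only the Elane limit (0.551, 0.428 to 0.710), as was Slfn8, with 0.552 (0.446 to 0.680) in B-lineage and 0.484 (0.285 to 0.829) in Elane-rich barcodes. After thinning, the list median was 0.03 above that of all genes. Antigen presentation genes had a median difference of −0.18, with 14 of 20 below, 3 past 1.5-fold lower and 0 higher. The 3 were Cd74, the MHC class II invariant chain (0.338, 0.199 to 0.567), H2-Ab1 (0.512, 0.315 to 0.836) and H2-Q6 (0.648, 0.513 to 0.821). B cell markers moved the same way, with a summed level of 63.8 CPM in KO members and 459 CPM in WT members and all 3 measured markers past 1.5-fold lower in KO, and their part in the Cd74 and H2-Ab1 ratios was not tested. B2m, the light chain of MHC class I, was at 1310.0 CPM in KO against 1495 CPM in WT (0.876, 0.814 to 0.944) and H2-K1 at 979 CPM in KO against 1138 CPM in WT (0.860, 0.790 to 0.937). Genes of the H2-Q family are near-identical copies whose UMIs the counting can have split.

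**Figure D4:**
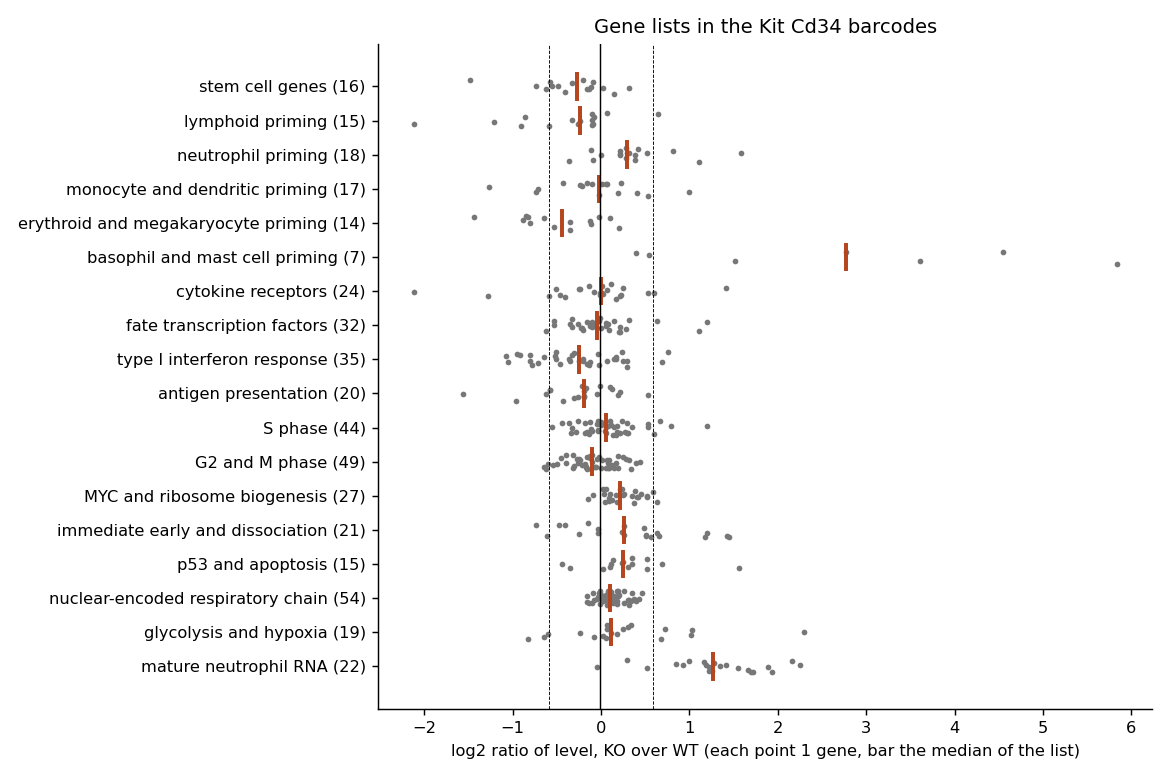
Log2 ratio of KO over WT (x axis) for each measured gene (point) of 18 gene lists, with the number of genes in brackets, a bar at the median of the list, a solid line at the median of all genes and dashed lines at 1.5-fold. Stem cell, lymphoid and interferon lists have medians below the solid line, and neutrophil priming and mature neutrophil RNA above it.

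RNA of mature neutrophils was higher among KO members. Of 22 measured genes (29 listed), 21 lay above the median of all genes and 19 were past 1.5-fold higher, with a median 1.28 above on the log2 scale. S100a9 (ENSMUSG00000056071, chromosome 3, 90692632 to 90695721, minus strand) was at 9377 CPM in KO against 3192 CPM in WT, Ngp, a granule protein, at 1417 CPM in KO against 559 CPM in WT, and Ltf, which encodes lactoferrin, at 705 CPM in KO against 222 CPM in WT. These sums rested on a tail of barcodes. The summed level of the list was 17260 CPM in KO and 6409 CPM in WT, while its median over barcodes was 2413 CPM in KO (range 1082 to 389490) and 2194 CPM in WT (790 to 79459). The median S100a9 level in a barcode was 1146 CPM in KO and 895 CPM in WT. Members with at least 30 UMIs over Ngp, Camp and Ltf numbered 14 in KO (11.7%) and 3 in WT (3.85%). Without them the ratio was 0.921 for Ngp and 0.827 for Camp, another granule gene. This limit reads Ngp, Camp and Ltf only and can leave other neutrophil RNA in. KO members with 569, 375 and 274 S100a9 UMIs had 3, 2 and 4 Ngp UMIs. The WT members with most S100a9, at 785, 564 and 385 UMIs, had 181, 76 and 26 Ngp UMIs. B-lineage barcodes held the same RNA, with a summed level of 30708 CPM in KO and 25754 CPM in WT. The list median was 2.26 above that of all genes without barcodes marked as doublets and 0.86 without the 14 KO and 3 WT barcodes above. The marked doublets were 10 KO and 3 WT members. The 3 barcodes with most S100a9 held 33.4% of its KO UMIs and 75.4% of its WT UMIs, so leaving out a few barcodes can change WT far more. How far the value of 2.26 rests on such uneven removal was not tested.

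Markers of other cell types that a CD45+ sort of marrow could hold were low in most members. B cell markers summed to 63.8 CPM in KO members and 459 CPM in WT members (13 genes, against 25836 CPM in KO and 26828 CPM in WT B-lineage barcodes), with a median over barcodes of 0 CPM in KO and 166 CPM in WT and Vpreb2 at 0 in KO. The 3 B cell markers with enough UMIs, Cd79b, Ebf1 and Igkc, were all past 1.5-fold lower in KO. Erythroid markers summed to 212 CPM in KO and 1233 CPM in WT with all 5 measured genes past 1.5-fold lower in KO, Alas2 and Slc4a1 at 0 in KO, and most WT hemoglobin UMIs in the 1 barcode named above. T and NK cell markers summed to 218 CPM in KO and 194 CPM in WT, macrophage and monocyte markers to 505 CPM in KO and 587 CPM in WT, and plasmacytoid dendritic markers to 820.1 CPM in KO and 928 CPM in WT. Of these, 1 of 2 measured T and NK cell markers was past 1.5-fold higher (Ccl5), and 2 of 7 macrophage markers (Vcam1 and Slc40a1) and 2 of 6 plasmacytoid dendritic markers (Siglech and Ly6d) were lower. Megakaryocyte and platelet markers summed to 118 CPM in KO and 129 CPM in WT, and stromal and endothelial markers to 83.6 CPM in KO and 92.9 CPM in WT with Col1a1, Lepr and Cxcl12 at 0 in both. None of the 3 measured genes of the megakaryocyte and stromal lists was past 1.5-fold. The part of these markers in the B, erythroid and macrophage differences of the members was not tested beyond leaving out the 4 KO and 8 WT barcodes rich in them.

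S100a6 RNA was higher in the KO members. S100a6 (ENSMUSG00000001025), a calcium-binding gene of the same cluster on chromosome 3 (90612882 to 90624181, plus strand), was at 1374 CPM in KO against 247 CPM in WT (5.57, 4.78 to 6.52) and had a UMI in 100 KO members (83.3%) and 41 WT members (52.6%). Its median over barcodes was 192 CPM in KO and 66.5 CPM in WT. Without the barcodes rich in neutrophil RNA its ratio was 7.51, but that limit reads Ngp, Camp and Ltf only and can leave other neutrophil RNA in. The S100a6 ratio ranged over the alternatives from 4.50 with at least 2 UMIs of Kit and of Cd34 to 12.5 without marked doublets. The marked members were 10 in KO and 3 in WT. It was also higher in KO among B-lineage barcodes, at 2885 CPM in KO against 764 CPM in WT (3.77, 3.63 to 3.92), levels above those of the members of the same library, and among barcodes that failed only the Elane limit, at 1189.7 CPM in KO against 305 CPM in WT (3.90, 3.51 to 4.34). A S100a6 UMI was found in 58.7% of KO and 26.0% of WT B-lineage barcodes, at median depths of 2170 UMIs in KO and 1814 in WT. Whether the S100a6 RNA of the members was their own or background of the library was not tested. Of the 7 measured genes in the list of other S100 genes (14 listed, with a median 0.03 above that of all genes), S100a6 alone was past 1.5-fold. The others had ratios of 0.851 for S100pbp, which encodes a protein that binds an S100 protein, 1.43 (1.19 to 1.74) for S100a11, 0.986 (0.820 to 1.19) for S100a10, 1.05 (0.804 to 1.38) for S100a13, 1.01 (0.665 to 1.58) for S100a1 and 0.732 (0.435 to 1.26) for S100a4.

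A rule on ratio, depth and spread named 15 genes each way among 3393 eligible genes. The 15 with the highest ratios were Mid1, Ms4a2, Csf2rb, Ap1g1, Ssbp4, Plxnc1, Sssca1, Ffar2, Fam129a, Rsl24d1, Tsr1, Hsd17b4, Cd3eap, Tbc1d15 and Ubfd1. Mid1, a ubiquitin ligase bound to microtubules (ENSMUSG00000035299, chromosome X, 169685199 to 170005736, plus strand), led them at 63.2 CPM in KO against 18.0 CPM in WT (3.50, 1.96 to 6.80), with a UMI in 53 KO and 13 WT members. Ap1g1, a subunit of the clathrin adaptor AP-1, was at 63.8 CPM in KO against 25 CPM in WT (2.55, 1.54 to 4.48), Plxnc1, a semaphorin receptor, at 60.1 CPM in KO against 27.7 CPM in WT (2.17, 1.33 to 3.70), and Ffar2, a receptor for short-chain fatty acids on leukocytes, at 53.9 CPM in KO against 26.4 CPM in WT (2.04, 1.23 to 3.56). Tsr1 and Rsl24d1, which build ribosomal subunits, had ratios of 1.93 (1.20 to 3.22) and 1.95 (1.44 to 2.69). The other ratios of the 15 lay between 1.88 (Ubfd1) and 2.21 (Ssbp4). In both libraries Csf2rb, Plxnc1 and Fam129a were at higher levels over all kept barcodes than in the members. For Fam129a these were 131 CPM in KO and 94.0 CPM in WT, against 74.3 CPM in KO and 37.5 CPM in WT members. Several of these ratios moved by over 1.5 times under alternatives. Plxnc1 ranged from 1.20 with at least 3 Mpo UMIs to 3.77 with thinned members, and Ssbp4 from 1.46 with at least 3 Mpo UMIs to 5.92 with under 3. Sssca1 was at 1.26 and Ap1g1 at 4.17 with thinned members, Fam129a at 1.19 without basophil marker barcodes, and Cd3eap at 1.22 and Ubfd1 at 3.32 with under 3 Mpo UMIs.

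The 15 with the lowest ratios were Dntt, Xrcc6, Gimap1, Zfp608, Wdfy1, Pcmtd1, Lbh, Plgrkt, Apoe, Zfp62, Car2, Cd93, Cirbp, Prpf18 and Adi1. Xrcc6, which encodes the Ku70 subunit of the DNA end-joining machinery, was at 50.2 CPM in KO against 97.1 CPM in WT (0.517, 0.371 to 0.722). Gimap1, a GTPase of lymphocytes, was at 44.0 CPM in KO against 84.6 CPM in WT (0.520, 0.364 to 0.744). Cd93, a surface lectin-like receptor of early B cells and stem and progenitor cells, was at 115 CPM in KO against 207 CPM in WT (0.554, 0.444 to 0.693) and was found in 76 KO and 62 WT members. Cirbp, the cold-inducible RNA-binding protein, was at 53.9 CPM in KO against 97.1 CPM in WT (0.555, 0.400 to 0.771). The other genes of the 15 not described above had ratios between 0.522 (Zfp608) and 0.560 (Adi1).

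The same genes were set against other barcodes of the libraries to see which ratios were shared. In B-lineage barcodes, 11 of the 15 higher genes had a ratio above 1, as had 51.3% of all 3393 eligible genes, and 5 were past 1.5-fold higher in KO, against a background of 2.8%. Of the 15 lower genes, 6 had a ratio below 1 there, as had 48.7% of eligible genes, and 2 were past 1.5-fold lower in KO, against 0.825%. In Elane-rich barcodes, 9 of the higher genes had a ratio above 1, as had 57.9% of eligible genes, and 2 were past 1.5-fold higher, against 1.09%. Of the lower genes, 13 had a ratio below 1, as had 42.1% of eligible genes, and 3 were past 1.5-fold lower, against 1.27%. The members' own ratios chose these genes, and all classes of a genotype come from 1 library. Mid1 had ratios of 3.62 (2.79 to 4.74) in B-lineage and 2.28 (1.53 to 3.51) in Elane-rich barcodes, and Csf2rb 1.77 (1.4 to 2.24) in B-lineage and 1.42 (1.12 to 1.82) in Elane-rich barcodes. Cd93 was lower in KO in B-lineage barcodes (0.662, 0.595 to 0.736) and at a ratio near 1 in Elane-rich barcodes (0.978, 0.825 to 1.16). Hlf was lower in KO among Elane-rich barcodes too, at 8.13 CPM in KO against 21.2 CPM in WT (0.384, 0.215 to 0.683), from far lower levels than in the members. Ctsg, in contrast, had a ratio of 1.12 (1.05 to 1.18) and Prtn3 1.06 (1.03 to 1.10) among those Elane-rich barcodes, whose Mpo level was 6120.5 CPM in KO against 7043 CPM in WT.

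The members were not uniform, and lineage programs overlapped in the same barcode. An Hlf UMI was found in 56 KO and 38 WT members, a Dntt UMI in 28 KO and 29 WT members, and at least 3 Mpo UMIs in 67 KO and 38 WT members. At least 3 Irf8 UMIs were found in 29 KO and 16 WT members, at least 2 UMIs over Gata1 and Klf1 in 9 KO and 2 WT members, and the basophil markers in 16 KO and 4 WT members. These conditions overlap, so a member can be counted in several. In KO 71 members (59.2%) and in WT 44 (56.4%) met at least 2 of these conditions, and 11 KO and 5 WT members met none. Mpo at 3 or more UMIs was found in 35 of 56 Hlf-positive KO members (62.5%) and 15 of 38 Hlf-positive WT members (39.5%). Among Hlf-negative members it was found in 32 of 64 in KO (50%) and 23 of 40 in WT (57.5%). These counts were not thinned, and Hlf-positive members had a median of 12551.5 UMIs in KO and 8172.5 in WT. Conversely, Hlf with under 3 Mpo UMIs marked 21 KO members (17.5%; 11.2 to 25.5) and 23 WT members (29.5%; 19.7 to 40.9), with overlapping intervals and with fewer UMIs per barcode in WT. Dntt with under 3 Mpo UMIs marked 17 KO (14.2%; 8.47 to 21.7) and 20 WT members (25.6%; 16.4 to 36.8). Irf8 at 3 or more UMIs went with few Hlf-positive barcodes in each library, in 6 of 56 KO and 2 of 38 WT Hlf-positive members, against 23 of 64 KO and 14 of 40 WT Hlf-negative members.

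A split of the members at 3 Mpo UMIs showed how the programs were arranged within each genotype, with Mpo itself left out of the genes compared. Members with at least 3 Mpo UMIs numbered 67 in KO and 38 in WT, and members with fewer 53 in KO and 40 in WT. The Mpo count rises with depth, and median depth was 13915 against 8531 UMIs in Mpo-low members of KO and 9106 against 6074 in WT. Of all genes measured in this comparison, 7.04% were past 1.5-fold higher and 9.47% lower in the Mpo-high members of KO (5173 genes), and 10.4% higher and 9.59% lower in those of WT (2564 genes). Stem cell genes were lower in the Mpo-high members by a median log2 ratio of −0.94 in KO (12 genes, 9 past 1.5-fold lower) and −1.09 in WT (9 genes, 6 past 1.5-fold lower). Lymphoid genes were lower at −0.46 in KO and −0.53 in WT, and neutrophil-priming genes higher at 0.83 in KO (12 of 15 past 1.5-fold) and 0.82 in WT (5 of 8). Meis1 had a ratio of Mpo-high over Mpo-low members of 0.374 (0.282 to 0.493) in KO against 0.409 (0.271 to 0.610) in WT, Prtn3 of 4.19 (3.40 to 5.21) in KO against 4.75 (3.47 to 6.65) in WT, and Calr of 2.76 (2.34 to 3.28) in KO against 2.57 (2.04 to 3.28) in WT.

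Ribosome biogenesis and respiratory chain genes were higher in Mpo-high members of both genotypes, at 0.35 and 0.23 in KO and 0.43 and 0.23 in WT, and immediate early genes lower, at −0.61 in KO and −0.48 in WT. Mature neutrophil RNA had medians of −0.60 in KO and 0.98 in WT, which rested on few barcodes. In WT, 2 Mpo-high barcodes held 1349 of the 2301 S100a9 UMIs and 257 of the 403 Ngp UMIs of all members. Without the 14 KO and 3 WT barcodes rich in neutrophil RNA, the medians were 0.30 in KO (16 genes measured) and −0.13 in WT (7 genes), so no direction is read from this list. Flt3 had ratios of 0.769 (0.612 to 0.969) in KO against 0.435 (0.327 to 0.575) in WT, Angpt1 of 0.554 (0.439 to 0.70) in KO against 1.05 (0.779 to 1.43) in WT, and Hoxa9 of 0.777 (0.499 to 1.23) in KO against 0.264 (0.142 to 0.470) in WT. The difference between genotypes in these ratios was not tested. Within each side of the split, the KO over WT ratio of Flt3 was 0.930 in Mpo-high and 0.526 in Mpo-low members, that of Hlf 0.843 in Mpo-high and 0.535 in Mpo-low members, and that of Dntt 0.289 in Mpo-high and 0.609 in Mpo-low members. These ratios lay below 1 on both sides, nearest to 1 for Flt3 in Mpo-high members, and are given without intervals. Median depth differed on each side, at 13915 UMIs in KO against 9106 in WT for Mpo-high members. For Mpo-low members it was 8531 in KO against 6074 in WT.

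**Figure D5:**
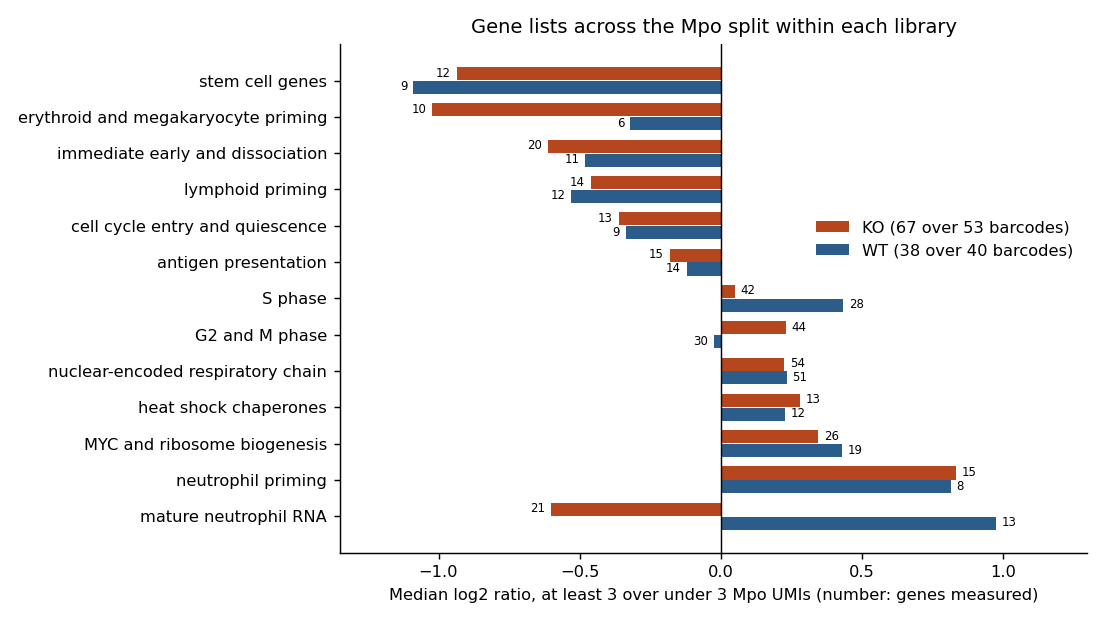
Median log2 ratio of members with at least 3 over members with under 3 Mpo UMIs (x axis) for 13 gene lists, with KO bars above WT bars and the number of genes measured beside each bar. Stem cell genes lie at −0.94 in KO and −1.09 in WT and neutrophil-priming genes at 0.83 in KO and 0.82 in WT.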

How the data were processed

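Single-cell 3′ RNA counts were deposited by the authors as gene by barcode matrices, made with Cell Ranger 3.1.0 per the file headers of the bone marrow libraries. The submitters' processing notes name Seurat 4.3.0, Cell Ranger 6.1.2 and R 4.2.1, and the builds mm10 and GRCm38. How empty droplets were called is not given in the sources used here, and the smallest barcode held 500 UMIs. The 31053 features carry 31017 symbols, and counts of features that share a symbol were added. Coordinates are GRCm38 (GENCODE M21). The RefSeq start of Prtn3 differs from the start in that annotation.

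Counts were summed over the members of each library and divided by the member total (CPM). A gene was measured when KO and WT members together held 50 or more UMIs, and 1.5-fold was the size named. With 1 library a group there was no test. Intervals are 95% and cover counting error only: exact conditional intervals for ratios, exact Clopper-Pearson intervals for shares, and the Katz interval for the ratio of member shares. The intervals for ratios of levels use UMIs pooled over members and leave out the spread between barcodes. For a bound, 0 UMIs in a library's members counted as 3. Members, selected at full depth, were thinned to 4500 UMIs to compare shares. For the member share, barcodes were thinned to 2000 UMIs before the rule was applied.

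The 30 gene lists and the members were chosen with earlier results of these data known. The rule for named genes took the 15 highest and 15 lowest ratios among genes with at least 100 UMIs, at least 50 CPM in either library, a level at least 0.5 of that over all kept barcodes and no barcode above 20% of the UMIs. The 20% was taken of the UMIs of KO and WT members together, so a barcode can hold more of its own library. It left out mitochondrial, ribosomal, hemoglobin, immunoglobulin, T cell receptor, sex-linked (Y genes, Xist and Tsix), histone and numbered predicted genes and the genes of the rule. It added up to 6 genes per list with the largest ratios and at least 100 UMIs, and the lists' fixed genes; other genes named were chosen after their values were seen.

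Doublets were kept, and left out in an alternative. The automatic threshold of Scrublet marked 0 KO and 423 WT barcodes, so the highest scores at 0.8% per 1000 kept barcodes were taken, which marked 10 KO and 3 WT members. Alternatives restricted to members of 5000 to 15000 UMIs, without barcodes with basophil markers and without barcodes rich in neutrophil RNA (also in the Mpo split) were chosen after seeing the data. The code was tested on simulated data. Python 3.11.15, numpy 2.4.6, scipy 1.17.1, pandas 2.3.3, scanpy 1.11.5 and matplotlib 3.10.9 were used.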

Additional observations from a re-analysis of the deposited data

Results flagged for a closer look

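Barcodes that met the same rule also occurred in the tumor libraries, whose barcodes enter no comparison above. In the KO tumor 10 of 11413 kept barcodes met it (0.0876%; 0.0420 to 0.161), and in the WT tumor 20 of 11621 (0.172%; 0.105 to 0.266). Flt3 was found in 4 of the KO and 11 of the WT tumor barcodes, Meis1 in 1 KO and 4 WT barcodes, and at least 3 Cpa3 UMIs in 3 KO and 4 WT barcodes. Mpo, found in 68.3% of KO and 69.2% of WT marrow members, and Hlf, found in 46.7% of KO and 48.7% of WT marrow members, were at 0 in the tumor barcodes of both genotypes. These zeros rest on 10 KO and 20 WT barcodes, whose depth was not compared with that of the marrow members. The identity of these tumor barcodes was not tested.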

How the results depend on the processing

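No paired analysis was possible because each genotype had 1 library. The ratio of the member share was 0.827 with barcodes thinned before the rule. Of the 6543 genes measured, 363 (5.55%) were higher and 382 (5.84%) lower in KO in the main comparison. Genes higher in KO numbered 567 of 6543 as a mean over members and 107 of 6543 at 2-fold. They numbered 54 of 1997 (2.7%) with at least 200 UMIs, and 201 with members thinned. Genes lower in KO numbered 51 of 6543 at 2-fold and 29 of 1997 (1.45%) with at least 200 UMIs. They numbered 178 with under 3 Mpo UMIs, 220 with 5000 to 15000 UMIs and 132 thinned. Fewer genes reach 50 UMIs with members thinned or restricted, so those counts cannot be set against the main counts.

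List medians on the log2 scale, relative to all genes, moved as follows. Restricted to members of 5000 to 15000 UMIs they were −0.073 for stem cell genes, 0.084 for erythroid and megakaryocyte priming, −0.35 for G2 and M phase, 0.035 for MYC and ribosome biogenesis and 2.10 for mature neutrophil RNA. With members thinned they were 0.15 for neutrophil priming, 0.034 for type I interferon response, −0.00042 for MYC and ribosome biogenesis and −0.033 for the respiratory chain. With under 3 Mpo UMIs they were −0.00080 for neutrophil priming, 0.30 for S phase, −0.30 for G2 and M phase and 2.47 for mature neutrophil RNA, and with at least 3 they were −0.076 for S phase and 0.75 for mature neutrophil RNA. As a mean over members they were 0.12 for erythroid and megakaryocyte priming, 0.20 for G2 and M phase and 1.78 for mature neutrophil RNA. Without basophil marker barcodes neutrophil priming was at 0.076 and G2 and M phase at −0.17. With at least 2 UMIs of Kit and of Cd34, erythroid and megakaryocyte priming was at −0.86, G2 and M phase at −0.17 and mature neutrophil RNA at 0.81. Neutrophil priming and mature neutrophil RNA were at 0.22 and 2.26 without marked doublets (10 KO and 3 WT members). They were at 0.14 and 2.38 without barcodes of other lineages. Mature neutrophil RNA was at 1.86 with no Elane or Pf4 UMI and at 0.86 without barcodes rich in neutrophil RNA. The stem cell, lymphoid, antigen presentation, immediate early, heat shock and p53 lists kept their sign in all 14 alternatives. The cause of these moves was not tested.

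Of 121 genes named or listed, 41 had a ratio of KO over WT on the other side of 1 under at least 1 alternative. Of these, 8 were past 1.5-fold in the main comparison. Apoe was at 1.21 with 5000 to 15000 UMIs, Hoxa9 at 1.27 with at least 3 Mpo UMIs, and Ly6d at 1.25 with under 3. Hemgn was at 2.00 with at least 3 Mpo UMIs, 1.96 with 5000 to 15000 UMIs, 1.08 as a mean, 1.15 thinned and 1.94 without its top barcode. Blvrb was at 1.00 with under 3 Mpo UMIs, 1.98 with 5000 to 15000 UMIs and 1.36 as a mean. Mcpt8 was at 0.705 without basophil marker barcodes. Ngp was at 0.921 and Camp at 0.827 without barcodes rich in neutrophil RNA, and Camp at 0.818 with at least 3 Mpo UMIs. The other 33 were within 1.5-fold, among them Cpa3 (0.654), Gata2 (0.885) and Cebpa (0.781) without basophil marker barcodes. Counted as pairs of a gene and an alternative, 1477 ratios stayed within the counting interval of the main value and 239 moved outside it, beside the 15 values of the 8 genes above. In all, 53 of the 121 genes moved by over 1.5 times under at least 1 alternative. Among genes past 1.5-fold, Ms4a2 ranged from 1.79 thinned to 32.8 with at least 2 UMIs of Kit and of Cd34, Prss34 from 5.18 without marked doublets to 76.9 with no Elane or Pf4 UMI, S100a9 from 1.79 with at least 3 Mpo UMIs to 8.21 without marked doublets, and Ltf from 1.02 without barcodes rich in neutrophil RNA to 11.1 with under 3 Mpo UMIs. Ms4a3 was at 1.05 without basophil marker barcodes, Cebpe at 5.12, Fosb at 4.31 and Cebpd at 1.51 thinned, Car2 at 0.330 with no Elane or Pf4 UMI, Pcmtd1 at 0.895 with at least 3 Mpo UMIs and Slfn2 at 2.77 without barcodes of other lineages. In the Mpo split, the median of mature neutrophil RNA was 0.30 in KO and −0.13 in WT without barcodes rich in neutrophil RNA. Depth limits genes near 50 UMIs most.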
